A study of Mus musculus with 4 samples.

Results

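Weaker distal WT1 regions are stretches of the mouse genome that were called as peaks in both WT1 samples, that ranked below the most reproducible peaks, and that lay away from gene ends. They were chosen from the authors' table of regions found in both samples, which carries 1 irreproducible discovery rate (IDR) per region. The IDR is an error rate that is low where replicates rank a region alike and high, and it ran from 5.19e-08 to 0.555 in the table. A region was taken where its IDR was above 0.05 and at most 0.25, where it lay on chromosomes 1 to 19, and where its midpoint was more than 1 kb from either end of every protein-coding RefSeq gene. Of 17234 regions in the table, 4205 had an IDR in that range and 4144 of these were on chromosomes 1 to 19. A gene end lay within 1 kb of 561 of them, which left 3583 regions, or 20.8% of the table and 86.5% of the autosomal regions in the IDR range. Since the IDR was computed from both samples, IDR and replicate values of these regions are given as descriptions. The same distance rule gave 3512 regions with an IDR of 0.05 or lower, called reproducible distal regions here, and 7453 with an IDR above 0.25, called the weakest distal regions.

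WT1 is a zinc-finger transcription factor named for Wilms' tumour, a kidney cancer of childhood. In the developing kidney it is made in nephron progenitors, which give rise to the filtering units, and it stays on in podocytes, the cells that wrap the glomerular capillaries. Like other sequence-specific factors it binds promoters at gene starts and distal elements inside or between genes. A distal element can act over long distances and past other genes, so the nearest gene is a label of position and not a known target.

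Kidneys were dissected from wild-type embryos at embryonic day E18.5, of a mixed background of C57Bl6 crossed with B6DBA/F1. Chromatin of the whole organ was precipitated with a WT1 antibody (C-19) or with IgG as the control, in 2 samples each, and the labels do not say whether kidneys were pooled. Only the peaks of the 2 WT1 samples were used, 53132 and 57641 in replicates 1 and 2, while IgG was not analysed here. Each deposited peak carries a significance value of at most 0.0499 that the files do not name as p or q, and no counts, so the sequencing depth behind a region is unknown. Because the tissue is whole kidney, weak binding in many cells and strong binding in few cells cannot be told apart.

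Sequence could be shown for the members that reach a RefSeq promoter window, which runs from 250 bases before to 50 bases after a transcript start. Although all lay over 1 kb from the outer ends of protein-coding genes, 72 of the 3583 regions (2.01%) overlapped 86 such windows. Of these, 33 were at starts inside 33 protein-coding genes, 41 at starts of 42 genes of other types, and 2 at both. The internal protein-coding starts were between 1.03 kb (Sardh) and 152 kb (Nhsl1) from the 5' end of their gene, and 12 of the 33 genes had one over 10 kb away. In 17 windows at least 250 bases were covered by the region. The windows of 4 protein-coding genes are printed from RefSeq (GRCm38.p6) as examples of weaker regions over an internal start, 5' to 3' on the strand of the gene. They were chosen from 9 protein-coding genes with windows so covered, after their motifs were seen, and the windows of Prss23, Pld1 and Cab39l, which are not printed, hold none of the motifs. Capitals mark 3 short GC-rich motifs often quoted for WT1, in either orientation. The first is GCGTGGG, which reads CCCACGC on the other strand. The second motif searched was GTGGGAG, with CTCCCAC as its reverse. The last was TCCTCC, which reads GGAGGA on the other strand.
Sbsn internal start, chr7:30751221-30751520, plus strand: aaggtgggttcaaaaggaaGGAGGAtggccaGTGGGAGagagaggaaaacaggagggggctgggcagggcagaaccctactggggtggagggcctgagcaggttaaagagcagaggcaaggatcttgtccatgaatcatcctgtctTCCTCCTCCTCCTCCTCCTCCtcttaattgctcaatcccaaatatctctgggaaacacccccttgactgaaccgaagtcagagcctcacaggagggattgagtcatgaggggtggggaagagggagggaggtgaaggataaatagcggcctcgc
Arap1 internal start, chr7:101394138-101394437, plus strand: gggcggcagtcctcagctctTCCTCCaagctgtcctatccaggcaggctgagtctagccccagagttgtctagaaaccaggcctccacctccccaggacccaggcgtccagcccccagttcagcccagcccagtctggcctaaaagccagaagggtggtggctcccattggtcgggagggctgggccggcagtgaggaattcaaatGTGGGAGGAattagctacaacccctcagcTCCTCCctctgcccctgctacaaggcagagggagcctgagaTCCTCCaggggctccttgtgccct
Smim14 internal start, chr5:65492939-65493238, minus strand: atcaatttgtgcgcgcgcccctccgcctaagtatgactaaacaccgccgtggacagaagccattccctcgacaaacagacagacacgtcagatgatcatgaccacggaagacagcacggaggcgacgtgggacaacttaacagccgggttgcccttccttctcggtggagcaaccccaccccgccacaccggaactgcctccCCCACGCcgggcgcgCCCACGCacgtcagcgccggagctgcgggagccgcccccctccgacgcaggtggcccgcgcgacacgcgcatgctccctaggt
Dalrd3 internal start, chr9:108569642-108569941, plus strand: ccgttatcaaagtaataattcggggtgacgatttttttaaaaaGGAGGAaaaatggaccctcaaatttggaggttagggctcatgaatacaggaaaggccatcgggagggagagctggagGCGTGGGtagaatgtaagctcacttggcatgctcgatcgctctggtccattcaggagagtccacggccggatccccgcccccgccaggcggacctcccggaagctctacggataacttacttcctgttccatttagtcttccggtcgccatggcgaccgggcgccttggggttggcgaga

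The Sbsn window, 18.8 kb inside the locus of a gene for a secreted epithelial protein, held a run of TCCTCC and was covered over 287 bases by a region with an IDR of 0.0816. Its significance values were 0.00470 in replicate 1 and 1.16e-08 in replicate 2. Arap1, which encodes a GTPase-activating protein for small GTPases, had an internal start 46.5 kb from its 5' end, covered over all 300 bases (IDR 0.0841, values 0.00432 and 1.40e-06). In the Smim14 window, 44.2 kb inside this small membrane protein gene, CCCACGC occurred at 2 places (IDR 0.178, values 0.00584 and 1.29e-13). Dalrd3, whose product takes part in tRNA methylation, held 1 GCGTGGG 2.41 kb from its 5' end (IDR 0.205, values 0.00113 and 0.00253). At each of the 4 starts at least 1 sample gave a value of 0.00113 or lower.

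Among the 86 windows reached by a member, 9 (10.5%, exact Clopper-Pearson 95% interval 4.90 to 18.9) held GCGTGGG on either strand, against 5.04% of all 32817 distinct windows. GTGGGAG was in 13 of the 86 (15.1%, 8.30 to 24.5) and in 9.73% of all windows. TCCTCC was in 37 (43.0%, 32.4 to 54.2) and in 34.6% of all windows. The motifs can overlap each other, as in GTGGGAGGA of the Arap1 window. At the 144 windows reached by reproducible distal regions the 3 shares were 13.9%, 21.5% and 56.9%. At the 153 windows reached by the weakest distal regions they were 11.1%, 18.95% and 44.4%, each above the share of the weaker regions, so the shares did not follow the order of the IDR. Each interval of the weaker regions held the level of all windows. Base composition differed as well. The median GC content was 54.0% at the weaker regions, 57.0% at the reproducible ones, 57.3% at the weakest and 52.7% over all windows. The part of base composition in the motif shares was not tested. Windows of neighbouring transcripts overlap, so they are not independent, and a match is not a binding site. Sequence of the regions outside these windows was not used here.

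Inside promoter windows, the only place where sequence was read, the edges of the weaker regions often fell on the cut site of a restriction enzyme. Per the labels' protocols, precipitated DNA was digested by MseI together with AluI or HaeIII ahead of adapter ligation, and the labels do not tie an enzyme pair to a sample. AluI cuts within AGCT, MseI within TTAA and HaeIII within GGCC. Of the 73 edges of weaker regions that lay inside a promoter window, 15 (20.5%, 12 to 31.6) were exactly at an AluI cut position, 4 (5.48%) at an MseI cut and 3 (4.11%) at a HaeIII cut. Over all positions of the windows, an AluI cut is found at 0.526%, an MseI cut at 0.323% and a HaeIII cut at 0.611%. Of 99 such edges of reproducible distal regions, 8.08% were at an AluI cut and 3.03% at an MseI cut. Of 153 edges of the weakest, 13.7% and 9.15% were, and in both classes 0 were at a HaeIII cut. Edges of all peaks, member or not, lay at cut sites too. In replicate 1, 441 of 1912 peak edges in windows (23.1%) were at an AluI cut and 10 (0.523%) at a HaeIII cut, and in replicate 2, 537 of 3248 (16.5%) and 35 (1.08%). The AluI and MseI shares were thus above the level of all positions in both samples, while the HaeIII share was below it in replicate 1 and above it in replicate 2. To show such edges, 41 bases around 5 edges that were the same base in both replicates are printed from RefSeq promoter windows (GRCm38.p6, plus strand), with the enzyme's site in capitals and the edge at position 21.
Sptbn4 region, start edge, chr7:27394700-27394740, plus strand: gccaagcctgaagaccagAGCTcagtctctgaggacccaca
Tnrc6b region, start edge, chr15:80798488-80798528, plus strand: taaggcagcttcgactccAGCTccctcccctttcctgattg
Atg4c region, start edge, chr4:99193866-99193906, plus strand: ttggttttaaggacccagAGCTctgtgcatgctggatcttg
Osbpl2 region, end edge, chr2:180119213-180119253, plus strand: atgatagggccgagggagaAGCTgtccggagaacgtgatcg
1500009L16Rik region, start edge, chr10:83933570-83933610, plus strand: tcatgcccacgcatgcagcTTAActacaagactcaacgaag

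Those 5 regions had IDRs from 0.0711 to 0.229. Sptbn4, the gene of a spectrin of the membrane skeleton, had an IDR of 0.0730 with values of 0.0314 and 0.0143. Osbpl2, the gene of an oxysterol-binding protein, had an IDR of 0.0805 (0.00450 and 1.13e-08). Tnrc6b, which works in miRNA silencing, had 0.228 (0.00824 and 0.000583), and Atg4c, an autophagy protease gene, had 0.229 (0.00721 and 0.000770). At the MseI edge near 1500009L16Rik the IDR was 0.0711 and both values were low, at 4.92e-05 and 0.000401.

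**Figure D1:**
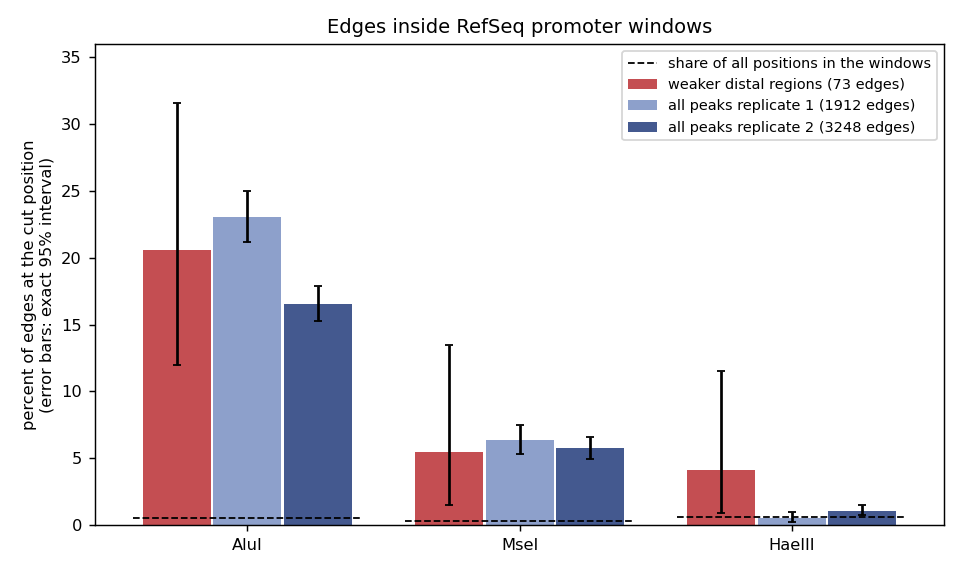
Percent of region or peak edges (y axis) that lie exactly at a cut position of AluI, MseI or HaeIII, for weaker distal regions and for all peaks of each replicate, counted only for edges inside RefSeq promoter windows, with exact 95% intervals as error bars and the share of all window positions as reference. AluI is at 20.5% of member edges against 0.526% of positions.

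Identical edges in the 2 replicates were common over the whole set. Replicates 1 and 2 had peaks that began at the identical base in 41.5% of the weaker regions and ended at the identical base in 40.9%. Both edges were identical in 658 regions (18.4%), against 10.9% of reproducible and 18.6% of weakest distal regions. In 3422 regions (95.5%) exactly 1 peak of each replicate lay at the region, and in all 3422 the region spanned both peaks. More than 1 peak was present in 95 regions (2.65%) of replicate 1 and in 75 (2.09%) of replicate 2. Weaker regions were narrow, with a median width of 201 bp (quartiles 147 and 280), against 379 bp (272 to 525) for reproducible distal regions and 195 bp for the weakest. The widest, 1104 bp inside Sfi1 (chr11:3187246-3188349), had an IDR of 0.131 with values of 1.38e-16 and 2.67e-07.

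In most weaker regions replicate 2 gave the more significant value. The smallest peak value per region had a median of 0.00687 in replicate 1 (quartiles 0.00262 and 0.0261; range 1.79e-34 to 0.0452) and of 0.00122 in replicate 2 (0.000115 and 0.00886; range 1.83e-27 to 0.0483). Replicate 2 had the lower value in 2847 regions (79.5%), against 89.5% of reproducible and 64.0% of weakest distal regions. Reproducible distal regions had medians of 6.00e-07 and 2.37e-12, and the weakest had 0.0215 and 0.01. Peaks of the same ranks in 1 list alone had other medians, 0.00145 in replicate 1 without replicate 2 and 1.68e-05 in replicate 2 without replicate 1. The IDR that defines the classes was made from both samples, by a score the sources do not name, so the order of the class medians is a description. Both values were at most 0.01 in 2041 weaker regions (57.0%) and at most 0.001 in 319 (8.90%), against 91.8% of reproducible distal regions. In only 39 weaker regions did replicate 1, and in 47 did replicate 2, have a value below the median of the reproducible distal regions, and in 0 did both. Across regions the Spearman correlation of the replicate values was 0.58, a description over 3583 regions of the same 2 libraries. The values came in steps: 442 regions (12.3%) shared the value 0.0314 in replicate 1 and 380 (10.6%) shared 0.0371, and there were 336 distinct values in replicate 1 and 707 in replicate 2.

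**Figure D2:**
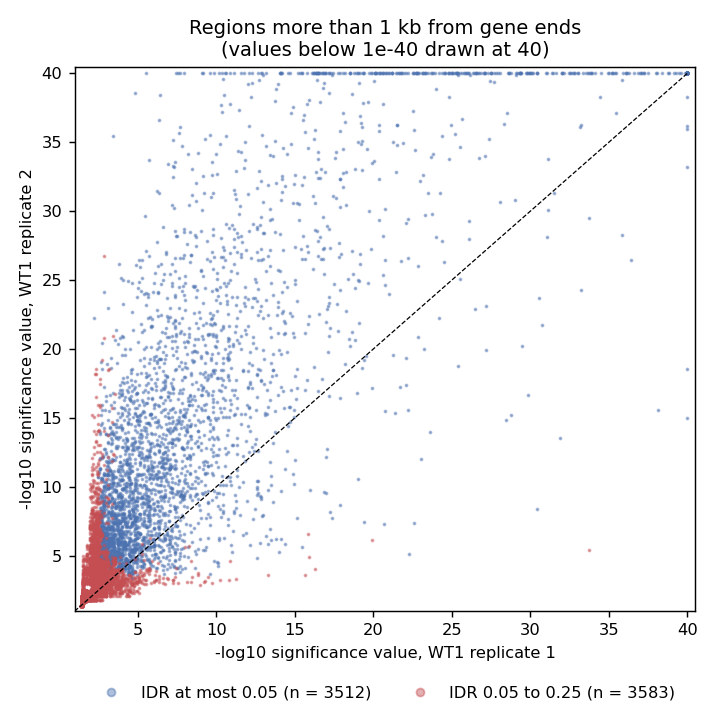
Significance values as -log10, with replicate 1 on the x axis and replicate 2 on the y axis, 1 point per weaker (red) or reproducible (blue) distal region, the dashed line at equal values, and values beyond the axis limit drawn at it. Most weaker regions lie in the low corner, at medians of 0.00687 and 0.00122 before the log, and some stretch along either axis, more of them along that of replicate 2.

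Not every weaker region was weak in both samples in the same way. Replicate values were both above 0.01 in 772 regions (21.5%), and their IDR still reached down to 0.0512. Those 772 were narrower, with a median of 138 bp against 244 bp for the 2041 regions with neither value above 0.01. They shared both edges in 30.7% of cases (27.5 to 34.1), against 13.3% (11.8 to 14.8), and 7.90% had a reproducible region within 10 kb, against 18.1%. Inside genes were 44.8% and 50.8%. A further 726 regions had only replicate 1 above 0.01 and 44 only replicate 2. The region with values of 0.0314 and 0.0197 inside Entpd1 (chr19:40635097-40635188, 92 bp), an ectonucleotidase gene, had an IDR of 0.0512. It was 1 of 167 regions with an IDR of 0.1 or lower and both values above 0.01. At the other extreme, 4 regions had an IDR above 0.2 and both values at most 0.001.

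Some regions were far more significant in 1 sample than in the other. Near Fmnl1, a formin gene, the region at chr11:103158511-103159122 had 0.00145 in replicate 1 and 1.83e-27 in replicate 2 (IDR 0.0691). Anks1b (0.00145 and 1.66e-21), Celf2 (0.000410 and 1.23e-21), Zfp64 (0.00196 and 6.12e-20) and Mfng (0.00476 and 2.84e-19) followed, with IDRs of 0.0735, 0.110, 0.141 and 0.129. The opposite order was seen at Ccdc192, with 1.79e-34 in replicate 1 and 4.03e-06 in replicate 2 (IDR 0.126). Near Zfhx3, a homeobox gene, the region at chr8:109105656-109106124 had 1.25e-20 and 7.15e-07 (IDR 0.227), and inside Skap1, the gene of an adaptor of T cell signalling, the region at chr11:96703749-96704193 had 2.39e-16 and 0.000236 (IDR 0.210). Inside Tbxas1, the thromboxane synthase gene, the pair was 1.19e-16 and 1.27e-05 (IDR 0.0512). Inside Sncaip it was 4.86e-17 and 8.66e-05 (IDR 0.171). In each of these 10 regions the lower value was below that sample's median among reproducible distal regions.

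Regions on either side of the IDR limits had the following values. They are named by the nearest gene, which need not hold them. The lowest IDRs among members, 0.050037 to 0.050409, had Mob3b, Ptch1, Bub3, Mgmt, Jup, Itpr2, Wnt11, Nkd1, Csrp1 and Prr5 as nearest genes. The regions near Ptch1, Bub3, Mgmt and Wnt11 lay outside protein-coding genes. Those near Bub3, Mgmt and Wnt11 were 81.4, 22.1 and 57.6 kb from the gene end. The Wnt11 region is thus not among those counted below for Wnt11 within 10 kb of the gene. Mob3b had values of 0.00196 and 3.86e-07. Ptch1, the receptor of Hedgehog ligands, had 0.00113 and 3.27e-06 at a region 39.7 kb from its 5' end. Just outside, Dlg5 (0.00136 and 2.15e-05), Rad51b (0.00130 and 1.14e-05) and Sulf2 (0.00136 and 1.14e-05) had IDRs of 0.049925 to 0.0499995. At the upper limit, Lrrfip1 (0.0261 and 0.00245), Med12l (0.00845 and 0.00309), Elovl5 (0.0118 and 3.27e-06), Zfp236 (0.00627 and 0.00254) and Tex2 (0.00145 and 0.00329) were within the IDR range. Marco (0.00458 and 0.00171), Spns3 (0.0261 and 1.74e-05) and Hsd3b3 (0.0371 and 0.0469) were just beyond 0.25.

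About equal numbers of weaker regions lay inside and between protein-coding genes. The midpoint was inside a gene in 1772 regions (49.5%, 47.8 to 51.1), against 54.3% (52.7 to 56.0) of reproducible distal regions and 51.2% (50.1 to 52.4) of the weakest. The median distance to the nearest gene end was 32.8 kb (quartiles 9.87 and 102), against 27.8 kb (8.15 and 76.0) for reproducible and 34.4 kb for the weakest distal regions. Inside genes the median was 24.2 kb and outside 47.4 kb. Between 1 and 5 kb from an end were 14.7% of weaker and 17.9% of reproducible regions, between 10 and 50 kb 33.8% and 36.8%, and between 100 and 500 kb 22.3% and 18.0%. Beyond 500 kb lay 115 weaker regions (3.21%) and 37 reproducible ones (1.05%). Weaker regions thus lay somewhat farther from gene ends than reproducible regions under the same rule, and these differences between classes were not tested. The regions farthest from any gene end were near Pcdh20, 2249 kb away (IDR 0.244, values 0.0215 and 0.0197), and near Pik3c3, 2187 and 2148 kb away.

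Within host genes, weaker regions were more often near the start than near the end, as were reproducible and weakest distal regions. Host genes, counted once per region, had a median length of 135 kb, against 118 kb for hosts of reproducible distal regions. The first 20% of the host gene held 356 of 1363 regions with a known strand (26.1%) and the last 20% held 200 (14.7%), with a median position 42.8% of the way from the 5' end. The nearest end was a 5' end for 1539 of 2769 weaker regions (55.6%), against 52.9% of reproducible and 55.2% of weakest distal regions. Within 10 kb of an end it was so for 464 of 720 (64.4%), against 60.2% of reproducible and 63.0% of weakest distal regions. Outside protein-coding genes, 379 of 1811 regions (20.9%) were in a long non-coding RNA gene, close to the 21.8% of reproducible regions.

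Most weaker regions stood far from any reproducible region. The gap to the nearest region with an IDR of at most 0.05, edge to edge, had a median of 124 kb (quartiles 29.7 and 378). For reproducible distal regions the gap to the next reproducible region had a median of 67.6 kb (12.4 and 211), and for the weakest it was 124 kb. A reproducible region lay within 10 kb of 536 weaker regions (15.0%, 13.8 to 16.2), against 22.9% of reproducible and 13.7% of weakest distal regions. A like share was taken from 1 peak list alone, with peaks of the same ranks and, as reference, the peaks ranked ahead of them. It was 23.7% (22.3 to 25.2) in replicate 2 without replicate 1, and 13.7% in replicate 1 without replicate 2. These 2 shares do not measure nearness to the reproducible regions. A reproducible region lay within 50 kb of 32.5% of weaker regions and within 100 kb of 44.8%, while 671 (18.7%) had none within 500 kb. Seen from the other side, 583 of 4360 reproducible autosomal regions (13.4%) had a weaker distal region within 10 kb. Weaker regions were also apart from each other: 384 (10.7%) had another within 10 kb, against 21.1% of reproducible distal regions with another of their class.

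**Figure D3:**
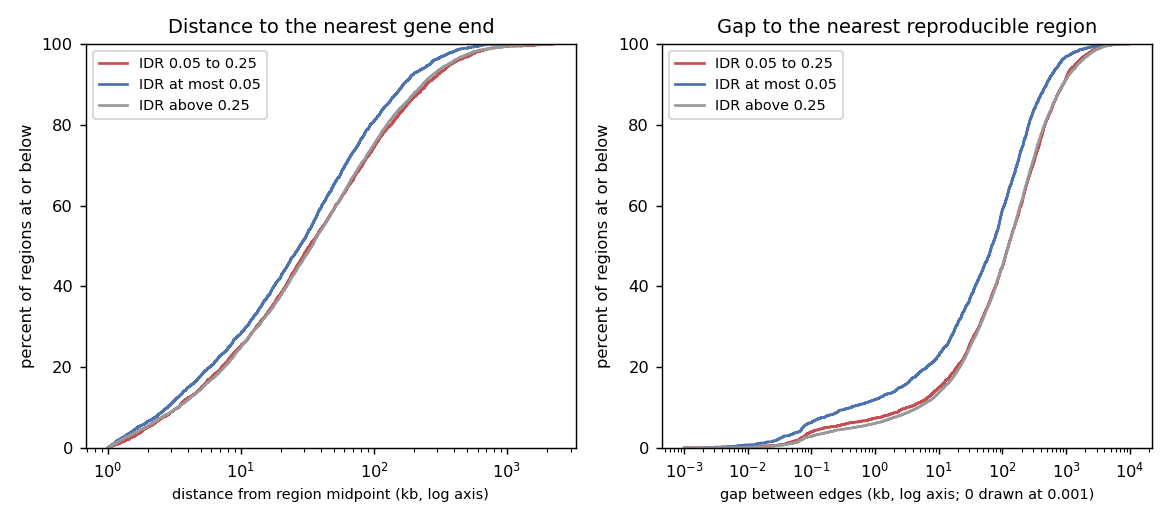
Cumulative percent of distal regions (y axes) by distance from the midpoint to the nearest protein-coding gene end and by gap to the nearest reproducible region (x axes, kb, log), with weaker regions in red, reproducible in blue and weakest in grey. Weaker regions reach 50% at 32.8 kb and at 124 kb, close to the weakest class, and reproducible regions reach it at 27.8 and 67.6 kb.

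The closest neighbours were separated by little. Of the 265 weaker regions within 1 kb of a reproducible region (7.4%), the median gap was 93 bp (59 to 267), 144 were within 100 bp, 19 within 20 bp and 2 touched or overlapped it. Of these 2 regions, on different chromosomes, 1 was near Rgmb, which encodes a BMP co-receptor (IDR 0.0768, values 0.00266 and 3.78e-05). The other was near Ptpro, the receptor tyrosine phosphatase of podocyte foot processes (chr6:137247558-137247747, IDR 0.0867, values 0.00473 and 2.16e-06). In Chd9, P3h2 and near Glrx3 the gaps were 1, 2 and 3 bp. Near Glrx3 the values were 0.000765 and 3.38e-19. At 1 bp the Chd9 pair had values of 0.00473 and 0.000600 in its weaker member (IDR 0.117). At the other end, the region near Alkbh8 (chr9:3185376-3185652, values 0.000199 and 0.00245) had no reproducible region for 10117 kb, and regions near Lrfn5, Mettl4 and in Nudcd1 had none for 5753 to 6731 kb.

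Weaker regions with the lowest IDRs were the widest and the most often near a reproducible region. In the IDR ranges of 0.05 to 0.1, 0.1 to 0.15, 0.15 to 0.2 and 0.2 to 0.25 there were 956, 867, 858 and 902 regions. A reproducible region lay within 10 kb of 18.3%, 14.5%, 12.1% and 14.5%, and the median width was 243, 201, 185.5 and 185.5 bp. Inside genes were 49.8%, 49.1%, 51.3% and 47.7%, with no order along the IDR, and the median distance to a gene end was 28.8, 33.6, 35.8 and 34.2 kb.

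At the level of genes, 1910 of 20665 autosomal protein-coding genes (9.24%) had a weaker distal region inside them or within 10 kb. Of these, 703 (3.40% of all genes) also had a reproducible region by the same window and 1207 (5.84%) did not, where reproducible regions at gene ends count too. In all, 2936 genes (14.2%) had a reproducible region, and a weaker distal region was at 23.9% (22.4 to 25.5) of them, against 6.81% (6.44 to 7.19) of genes without one. Gene length moved with this: the median length was 40.2 kb for genes with a reproducible region and 15.7 kb for those without, and its part was not tested. In 4 equal groups of genes from the shortest to the longest, 2.36%, 4.61%, 7.18% and 22.8% had a weaker region. Most genes had 1 (1513 genes), 295 had 2, 78 had 3 and 24 had 4 or more.

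The genes holding most weaker regions were mostly long. Creb5, a CREB-family transcription factor gene of 413 kb, held 6, beside 2 reproducible regions. Camta1, Auts2, Ksr1 and the read-through locus Iqschfp held 5 each, and Tbxas1, Kcnma1, Pcsk6 and Etv6 held 4 each. Auts2 held more reproducible regions (8) than weaker ones. Per 100 kb of gene, Ksr1 had 3.76 weaker regions, Pcsk6 2.12 and Creb5 1.45, against 0.45 in Auts2. In Etv6, an ETS repressor gene, the 4 regions formed 2 close pairs: chr6:134043558-134043764 lay beside chr6:134043772-134044026, and chr6:134242673-134242835 beside chr6:134242880-134243121, with IDRs of 0.0553, 0.199, 0.216 and 0.112. Close pairs also lay in Creb5 (chr6:53294406-53294512 beside chr6:53294556-53294675) and in Tbxas1 (chr6:39072490-39072722 beside chr6:39072791-39072889). The counts and densities per gene are therefore of regions and not of separate sites. In Pcsk6, a proprotein convertase gene, 2 of the 4 were 86 and 75 bp from a reproducible region.

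Among 22 genes that held at least 3 weaker regions and had no reproducible one, Ksr1 held the most. Ksr1 is a scaffold for the RAF, MEK and ERK kinases, through which FGF receptors signal, and its gene is 133 kb long on chromosome 11. The region nearest its 5' end, 29.6 kb inside, had an IDR of 0.0822 (0.00450 in replicate 1 and 6.37e-08 in replicate 2). The other 4 lay between 80.6 and 98.9 kb inside. At 80.6 kb the IDR was 0.165 (0.0111 and 2.15e-05) and at 88.1 kb it was 0.104 (0.00543 and 1.38e-08). At 94.8 kb it was 0.136 (0.00824 and 0.000115), and at 98.9 kb 0.225 (0.0314 and 0.0118). Replicate 2 had the lower value at all 5. A region of the weakest class (IDR 0.292) lay at 80.9 kb. Ankfn1, Skap1 and Opcml held 4 each with no reproducible region, and Itpr2, an inositol trisphosphate receptor gene, held 3.

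**Figure D4:**
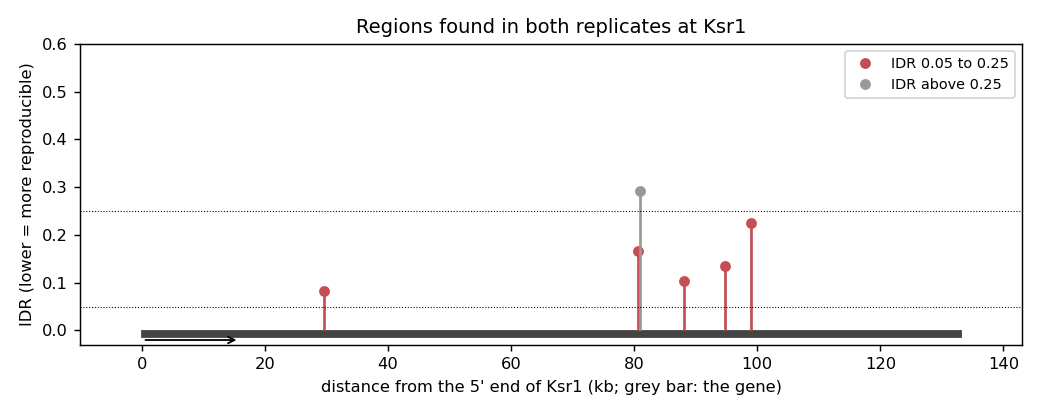
IDR (y axis, no unit) of each region found in both replicates at Ksr1, by distance from the 5' end of the gene (x axis, kb), with the gene as a grey bar, an arrow in its direction and dotted lines at IDRs of 0.05 and 0.25. Of the 5 weaker regions (red), 4 lie between 80.6 and 98.9 kb and 1 at 29.6 kb, and 1 region of the weakest class (grey) is at 80.9 kb.

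Lists of glomerular, nephron lineage, ureteric bud, stromal and signalling genes had shares with a weaker region above the 9.24% of all genes, and so did neuronal genes. The lists are short, and the intervals over genes for the basement membrane, ureteric bud, stroma and retinoic acid lists reached below 9.24%. Of 57 podocyte genes, 21 (36.8%, 24.4 to 50.7) had a weaker distal region, and 37 had a reproducible one (64.9%, against 14.2% of all genes). Fyn, the kinase that phosphorylates nephrin, had 3 weaker regions beside 4 reproducible ones, the best with values of 1.71e-06 and 4.92e-07 at an IDR of 0.0544. Plekhh2, a podocyte actin regulator gene, had 1 (0.00316 and 7.00e-15, IDR 0.0566). Ptpro had 3, of which the best lay inside the gene (0.00347 and 1.56e-09, IDR 0.0684). Plce1, the phospholipase gene mutated in a form of nephrotic syndrome, was 1 of only 3 podocyte genes with weaker regions alone: it had 2, the better one 2.76 kb outside the gene (0.00359 and 8.44e-07, IDR 0.0707). Podocyte genes thus mostly carried the weaker regions beside reproducible ones, while 1207 of all 1910 genes with a weaker region had no reproducible region.

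In the glomerular basement membrane and its integrins, 5 of 24 genes (20.8%) had a weaker region. Cd151, a tetraspanin partner of laminin-binding integrins, had values of 0.00596 and 1.13e-05 (IDR 0.0953), and Itga3, the integrin subunit itself, had 0.0215 and 1.69e-05 (IDR 0.223). The laminin gene Lamb1 (0.00627 and 0.0156, IDR 0.166) was 1.25 kb from a reproducible region. Col4a3, a collagen chain of the mature membrane, had no reproducible region and 1 weaker one with 0.0314 and 0.0271 (IDR 0.167), so both samples were above 0.01.

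In the nephron lineage, 7 of 32 nephron progenitor genes (21.9%) and 8 of 28 renal vesicle genes (28.6%) had a weaker region. Pax2, a regulator of progenitors, had 1 inside the gene beside 2 reproducible regions (0.00190 and 1.61e-05, IDR 0.0746). Gdnf, the ligand that draws out the ureteric bud, had none reproducible and 1 weaker region inside the gene (0.00196 and 0.00885, IDR 0.120). Sall1, a progenitor zinc-finger gene, likewise had 1 weaker region alone (0.0106 and 0.00479, IDR 0.186), and the adhesion gene Ncam1 had 1 beside 1 reproducible (0.00681 and 0.00356, IDR 0.161). Jag1, the Notch ligand of the renal vesicle, had an IDR of 0.0515 (0.00261 and 2.50e-07) and Greb1 0.0597 (0.00285 and 2.07e-06). Cdh6, a cadherin of early tubules, had 0.0612 (0.00261 and 0.000257). Wnt4, which drives the change from mesenchyme to epithelium, had a weaker region inside the gene (chr4:137283344-137283711) in which both samples gave about the same value, 0.000394 and 0.000450 (IDR 0.109), and no reproducible region within 10 kb of the gene.

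In the ureteric bud list 6 of 28 genes (21.4%) and in the renal stroma list 5 of 25 (20%) had a weaker region. Wnt11, secreted at bud tips, had 3 (best 0.00145 and 0.000128, IDR 0.0785), and Gfra1, the GDNF co-receptor gene, had 4 (best 8.15e-06 and 0.000583, IDR 0.0910). Sim1 and Tfcp2l1, transcription factor genes, had 1 each and no reproducible region. In the stroma list Meis2 and Pdgfra had 2 each, and Ntn1 and Dchs1 had 1 each, the best with IDRs of 0.0668, 0.0858, 0.0784 and 0.0726. Proximal tubule genes had a weaker region in 1 of 22 (4.55%, Cdh6) and loop and distal tubule genes in 2 of 20 (10%, Cldn10 and Trpm6). Median gene lengths in the tubule lists were 21.7 and 18.3 kb. They were 72.3 kb for podocyte, 16.9 kb for nephron progenitor, 9.83 kb for renal vesicle and 16.0 kb for ureteric bud genes. The part of length in these shares was not tested.

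Signalling lists lay between 17.4% and 31.0%. As a scale for the counts below, 1207 of all 1910 genes with a weaker region had no reproducible region. Wnt genes had a weaker region in 18 of 60 (30.0%, 18.8 to 43.2): Nkd1, a Dishevelled-binding inhibitor, with an IDR of 0.0503, the kinase gene Gsk3b with 0.0525, Cxxc5 with 0.0724 and Znrf3, a ligase that removes Frizzled receptors, with 0.0780. Of the 18, 8 had no reproducible region, Znrf3 among them, whose better region had values of 1.31e-07 and 0.000446. FGF genes had one in 10 of 45 (22.2%), 7 of them without a reproducible region, which includes Ksr1, the decoy receptor gene Fgfrl1 (2 regions, best 0.00681 and 7.21e-06) and the receptor gene Fgfr2 (0.000121 and 0.00115, IDR 0.116). Fgf1 had 2 beside 1 reproducible. BMP and TGF-beta genes had one in 11 of 44 (25%), led by the receptor genes Acvr2b (IDR 0.0600) and Bmpr1b (0.0808), the signal transducer Smad3 and the antagonist Nog (0.0866). The Smad3 region (0.00473 and 1.48e-07, IDR 0.0775) lay 7 bp from 1 of the reproducible regions of that gene.

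Notch genes had a weaker region in 8 of 34 (23.5%), with Numb, an inhibitor of the receptor (0.000281 and 2.99e-05, IDR 0.0609), the protease gene Adam17 (IDR 0.112) and the glycosyltransferase gene Mfng after Jag1. Hippo genes had one in 8 of 28 (28.6%), with the transcription factor gene Tead4 (0.00347 and 1.49e-10, IDR 0.0516), Dchs1, Wwc1 and Vgll4. Retinoic acid genes had one in 4 of 23 (17.4%), among them the receptor genes Rarg and Rara and the coactivator gene Ncoa2, and in all 4 beside reproducible regions. Semaphorins, plexins and neuropilins, guidance ligands and receptors, had one in 9 of 29 (31.0%), with Sema5b, Plxna1, Nrp2 and Sema4b first. Genes of the actin cytoskeleton and its regulators had one in 15 of 46 (32.6%), led by Tns3 (3 regions, best IDR 0.0513), Trio, Nck2 and Lpp, and 12 of the 15 also had a reproducible region.

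Lists for other cell types put these shares in scale. Endothelial genes had a weaker region in 1 of 22 (4.55%, Ehd3), liver genes in 1 of 21 (4.76%, Hp), housekeeping genes in 2 of 27 (7.41%, Ldha and Atp5b) and immune genes in 0 of 20 (exact interval up to 16.8%). Neuronal genes, however, had one in 7 of 22 (31.8%, 13.9 to 54.9), 6 of them without a reproducible region, against 1207 of all 1910 genes with a weaker region. Cntnap2 and Nrxn3, of which Nrxn3 also had a reproducible region, are neuronal adhesion genes over 1000 kb long, with best IDRs of 0.158 and 0.150. Stmn2 is a growth cone gene (0.0371 and 0.0222, IDR 0.213). A reproducible region was at 3 of 22 neuronal genes (13.6%), near the 14.2% of all genes, and at 37 of 57 podocyte genes (64.9%). Lengths differ widely between lists, from a median of 5.88 kb for housekeeping to 90.3 kb for actin genes, and the part of length in the shares was not tested.

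**Figure D5:**
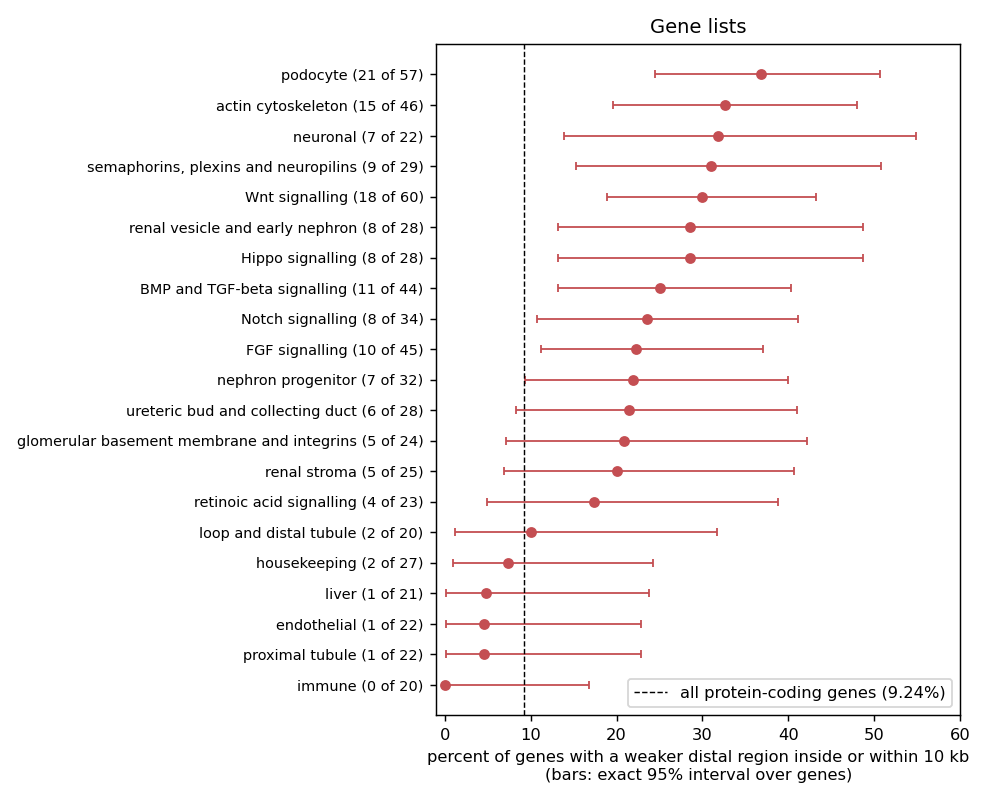
Percent of the genes of each list (x axis) with a weaker distal region inside or within 10 kb, with exact 95% intervals over genes as error bars, and the 9.24% of all genes as reference. Podocyte genes are at 36.8%, neuronal genes at 31.8% and immune genes at 0.

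Some weaker regions reached small RNA genes, and the same counts for the other classes are not given, so these are counts without a scale. Within 1 kb of a member's midpoint there were 13 miRNA genes, and 5 regions overlapped 6 hairpins. The region at chr11:75463190-75463837 covered the whole Mir22 hairpin, with values of 0.00145 and 0.000339 (IDR 0.163) and the nearest reproducible region 19.2 kb away. Its mature sequences are shown from RefSeq (GRCm38.p6) because they name the miRNA gene that lies within a weaker region, with the seed (bases 2 to 8) in capitals.
miR-22-5p, chr11:75463734-75463755, plus strand: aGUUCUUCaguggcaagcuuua
miR-22-3p, chr11:75463772-75463793, plus strand: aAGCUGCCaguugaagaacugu

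Inside Dnm1 another region covered the whole Gm23363 hairpin and part of that of Mir199b (IDR 0.191, values 0.0106 and 7.32e-07). The Mir7228 hairpin in Syna was also wholly covered (0.000659 and 2.85e-19), the Mir7045 hairpin in Chd4 was covered but for 1 base (0.0314 and 0.0197), and that of Mir6352 in Epha4 was covered in part (0.0371 and 0.00867). Of these 5 regions, only the 1 at Chd4 had a reproducible region within 10 kb, at 2.34 kb.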

How the data were processed

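Peaks of the 2 WT1 samples and the table of regions found in both were used as deposited; per the submitters' processing notes the build is mm10. The aligner, peak caller and IDR tool were not given in the sources used here. A significance value per deposited peak is read as a p-value or q-value, and the deposited IDR as a q-value-like score. 

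Regions were placed by their midpoint, against 21900 protein-coding genes of a RefSeq table for GRCm38.p6, the assembly mm10 is based on; strands came from the RefSeq promoter windows. A region's value in a replicate is the smallest among peaks overlapping it by at least 1 bp. A gene had a region if it lay inside or within 10 kb. Shares have exact Clopper-Pearson 95% intervals over regions or genes, which cover counting error only. With n = 2 samples of 1 group no test was run, and the significance values printed are the authors' own. A planned search of all region sequences was run on promoter windows only, since no genome sequence was used. Edges were compared with the first base after a cut (starts) or the last filled base before it (ends).

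Named regions follow a rule: the 10 lowest and 5 highest IDRs, the 3 nearest outside each limit, the 5 widest, the 5 nearest to and farthest from a reproducible region, the 5 largest and smallest ratios of replicate values, the 5 farthest from a gene end, the 10 genes with most regions, and 4 genes per list. Regions named for sequence, edges, classes of values, Ksr1 and weaker-only genes and miRNAs were chosen after their values were seen. Results for some genes that the rule names are not reported here. The regions and the 21 lists (616 symbols, all matched) were chosen with earlier results of these data known.

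Calculations used python 3.11.15, numpy 2.4.6, pandas 2.3.3, scipy 1.17.1 and matplotlib 3.10.9; 7 functions were tested on 200 simulated regions.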

Additional observations from a re-analysis of the deposited data

How the results depend on the processing

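The 3583 regions became 956 with an IDR of at most 0.1 and 2041 with both significance values at most 0.01, a choice added after the data were seen. The share inside genes moved from 49.5% to 47.3% more than 5 kb from a gene end and to 59.7% with RefSeq genes of any type. For the median distance to a gene end (32.8 kb) these 2 choices gave 46.3 and 13.1 kb, an IDR of at most 0.1 gave 28.8 kb and a limit of 500 bp gave 29.5 kb.

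The share within 10 kb of a reproducible region (15.0%) was 18.3% at an IDR of at most 0.1, 13.7% above it, 13.8% more than 5 kb from a gene end, 18.1% with both values at most 0.01, and 11.4% where reproducible meant an IDR of at most 0.01. With a limit of 5 or 50 kb it was 11.2% or 32.5%. Median values of replicates 1 and 2 were 0.00288 and 0.000107 at an IDR of at most 0.1, and 0.00938 and 0.00328 above it.

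Genes with a weaker region (9.24%) were 3.01% at an IDR of at most 0.1, 7.16% above it, and 6.35% more than 5 kb and 10.3% more than 500 bp from a gene end. With the distance rule set on RefSeq genes of any type, 8.78% of protein-coding genes had a weaker region. The share was 6.71% inside the gene only, 19.4% within 50 kb and 5.23% within 10 kb of an end. It was 5.87% with both values at most 0.01, and 8.69% without regions within 1 kb of a reproducible one, also added later.

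Leaving out 1 replicate, with the other sample's peaks of the same ranks taken, gave 3361 to 3667 regions, of which 48.3 to 53.9% were inside genes. The median distance to a gene end was then 26.8 to 38.1 kb, and 9.24 to 9.33% of genes had such a region. The ranks, 4412 to 8616, fixed the number of peaks taken before the chromosome and distance rules. The number of regions and the share of genes therefore depend largely on that choice and do not measure stability between replicates. Peaks ranked ahead of that range in the same list stood in for the reproducible regions, and 13.7 to 23.7% lay within 10 kb of one. Without replicate 2 the replicate 1 median was 0.00145, and without replicate 1 the replicate 2 median was 1.68e-05; a median of the replicate left out cannot be had. The lower share near the peaks ranked ahead thus came without replicate 2 and the higher one without replicate 1. The cause of the moves under these and the other choices was not tested.

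No paired analysis was possible because only the WT1 peak lists were used and no test was run. Depth is unknown, IgG was not analysed here, whole kidney hides the cell type, and many of the region edges inside promoter windows lie at cut sites.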
